A study of Homo sapiens with 2 samples.

Results

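The genes described here encode proteins that work with the androgen receptor on chromatin: the transcription factors FOXA1 and GATA2, the p160 coactivators NCOA1, NCOA2 and NCOA3, and the corepressor NCOR1. They were chosen by name, and every probe set that the array annotation assigned to exactly 1 of these 6 genes was taken. This gave 13 probe sets of 54675, for 4 genes: 2 probe sets of FOXA1, 3 of GATA2, 4 of NCOA1 and 4 of NCOA2. The rule found 0 probe sets for NCOA3 and NCOR1 in the annotation used here, so both genes are not analysed here. The receptor gene itself is not among the 6 genes and is not analysed here either.

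RNA came from C4-2, a prostate cancer cell line derived from LNCaP that grows without testicular androgen in mice. Cells transfected with the microRNA miR-99a for 48 h were compared with cells transfected for 48 h with si-GL2, an siRNA that served as the control. Both cultures grew in RPMI medium with fetal bovine serum and received the same lipid reagent, so control cells also carried a small RNA duplex. Each group holds 1 Affymetrix array, so the differences below have no replicate, no error between cultures and no p-value.

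The androgen receptor is a nuclear receptor that binds DNA after it has bound androgen. FOXA1 and GATA2 are known as pioneer factors: they bind compacted chromatin in prostate cells and open sites that the receptor then occupies. The p160 proteins NCOA1 (SRC-1) and NCOA2 (TIF2, GRIP1) dock on the hormone-bound receptor through LXXLL helices and bring in the acetyltransferases EP300 and CREBBP and the methyltransferase CARM1, while NCOR1 brings in the histone deacetylase HDAC3.

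The transfected agent is shown first, because it is the 1 difference between the cultures that the labels name. The labels do not say which strand of the miR-99a hairpin was meant, so both mature strands are given from RefSeq (GRCh38.p14, plus strand of chromosome 21, at chr21:16539101-16539122 and chr21:16539138-16539159), 5′ to 3′, with the seed, bases 2 to 8, in capitals.
hsa-miR-99a-5p: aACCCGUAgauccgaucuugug
hsa-miR-99a-3p: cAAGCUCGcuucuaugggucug
Matches of these seeds in the transcripts of the cofactor genes were not searched, since no transcript sequences were used here.

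Across the arrays the median signal was 47.8 with miR-99a and 47.4 with si-GL2, and Pearson's r over all probe sets, which share RNA and hybridisation, was 0.988 on the log2 scale. Differences are log2(signal + 16) after miR-99a minus the same after si-GL2, which understates the change of dim probe sets. A probe set counts as expressed when its mean log2 level reached the median of all probe sets, a signal of 47.2; this is a relative limit and not a detection call. Markers checked against the label of the cells were present: all 9 prostate luminal genes analysed were expressed, among them KLK3, prostate-specific antigen, at 6180 after miR-99a and 6783 after si-GL2. Of the markers of other cell types, 5 of 8 fibroblast genes, 2 of 5 leukocyte genes (CD3E and CSF1R) and 3 of 6 endothelial genes (PECAM1, TIE1 and ROBO4) also reached this limit, COL1A1 at 230 with miR-99a and 233 with si-GL2, while the leukocyte marker PTPRC, the endothelial markers VWF and CDH5 and the basal keratins KRT5, KRT14 and KRT15 did not. Of 6 basal epithelial genes analysed 2 were expressed, EGFR at a difference of 0.49 and ITGA6 at 0.44, and the summed signal of the 6 was 2116 with miR-99a and 1538 with si-GL2. The summed signal with miR-99a, against that with si-GL2, was 572 against 524 over 8 fibroblast markers, 219 against 172 over 5 leukocyte markers and 424 against 401 over 6 endothelial markers. The part of these markers in the results below was not tested.

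None of the cofactor probe sets differed by 1.5-fold between the arrays. In RNA of a whole culture, fewer cells of a type and less RNA per cell cannot be told apart. Of the 13, 12 were expressed, and 0 of the 12 passed 1.5-fold in either direction, beside 4.04% of all 27304 expressed probe sets (2.56% lower and 1.48% higher). Beside a background of that size, 0 of 12 does not set the cofactor genes apart. At a smaller limit of 1.2-fold, added after the values were seen, 1 of the 12 passed, a probe set of NCOA2 that was lower after miR-99a, beside 27.5% of all expressed probe sets. The median difference of the 12 was -0.08, with 7 below 0 and 5 above, beside a median of -0.02 and 53.7% below 0 over all expressed probe sets. Their SD was 0.15, and that of all expressed probe sets was 0.27. Most of the cofactor probe sets are bright, 9 of 13 at or above the 75th percentile of level. Probe sets around the very brightest of them differ less between these arrays. The SD was 0.12 around the level of the brightest GATA2 probe set and 0.15 around that of the brightest FOXA1 probe set. Around the other expressed cofactor probe sets it was between 0.26 and 0.28, near that of all expressed probe sets. It was 0.30 around the dimmest NCOA2 probe set. These SDs were taken over all probe sets within 0.25 log2 units of the level in question. Of the 13 probe sets, 11 differed by less than their SD. The share of all probe sets that do so was not counted, so this number does not set the cofactor probe sets apart.

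**Figure D1:**
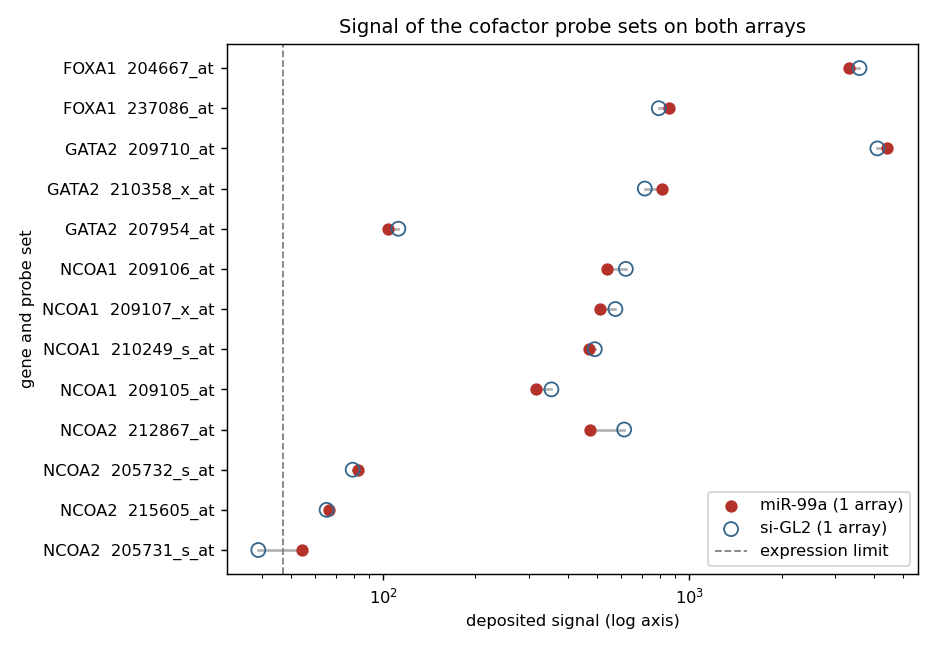
Deposited signal of the 13 cofactor probe sets (horizontal log axis, no unit) on the miR-99a array (filled) and the si-GL2 array (open), by gene and, within a gene, from bright to dim; the dashed line is the expression limit of 47.2. The pairs of points lie close together, and the widest gaps are those of NCOA2 212867_at, 475 with miR-99a and 612 with si-GL2, and NCOA2 205731_s_at, 54.2 with miR-99a and 39.05 with si-GL2.

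FOXA1 encodes the forkhead factor that marks luminal prostate and breast epithelium, and its transcript level was nearly alike on both arrays. Probe set 204667_at read 3328 with miR-99a and 3596 with si-GL2 (difference -0.11). Probe set 237086_at read 858 with miR-99a and 794 with si-GL2 (difference 0.11). The 2 probe sets thus differed in opposite directions by the same size, and their mean difference was -0.0016. Both were within the SD of probe sets of similar level, 0.15 and 0.26. Of the 2 other FOXA genes, FOXA2 read 57.4 with miR-99a and 69.2 with si-GL2 (difference -0.21), close to the expression limit, and FOXA3 was below the limit at 10.4 with miR-99a and 15.7 with si-GL2.

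GATA2 encodes a zinc finger factor that acts with the receptor at enhancers and is also known as a regulator of blood stem cells. Probe set 209710_at read 4424 with miR-99a and 4115 with si-GL2 (difference 0.10). Probe set 210358_x_at read 813 with miR-99a and 715 with si-GL2 (difference 0.18); its _x_ mark means that it can cross-hybridise with other sequences. The dim probe set 207954_at read 104 with miR-99a and 112 with si-GL2 (difference -0.10). The 2 brighter probe sets were higher after miR-99a and the dim one lower, with a mean of 0.06 over the 3 and an SD of 0.14, so the mean is smaller than the spread within the gene. The antisense transcript GATA2-AS1, which starts beside GATA2 and was looked at after the values were seen, read 270 with miR-99a and 287 with si-GL2 on its 1 probe set (difference -0.08).

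GATA3 (0.16), GATA4 (-0.40) and GATA6 (-0.14) from the list of partner factors had brightest probe sets between 44.9 and 88.8 on the 2 arrays. A second expressed GATA4 probe set was at 0.13, against the direction of the first.

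NCOA1 was the 1 gene of the 4 whose probe sets all lay on the same side. Probe set 209106_at read 540 with miR-99a and 620.0 with si-GL2 (difference -0.19). Probe set 209107_x_at read 509 with miR-99a and 573 with si-GL2 (difference -0.17). These probe sets, both bright, were lower after miR-99a by nearly the same amount. Probe set 209105_at read 315 with miR-99a and 354 with si-GL2 (difference -0.16). Probe set 210249_s_at read 471 with miR-99a and 491 with si-GL2 (difference -0.06). The mean over the 4 was -0.14 with an SD of 0.06, and the range within the gene was 0.14. Among 642 genes with 4 expressed probe sets the median range was 0.36 and the 25th percentile 0.22. In 19.6% of these genes all 4 probe sets were below 0, and in 19.8% all 4 were above 0. Probe sets of 1 gene read the same RNA on the same array, so their closeness concerns the measurement on these arrays and not a difference between conditions. Each of the 4 differences was within the SD of probe sets of similar level, between 0.27 and 0.28.

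NCOA2 was the gene whose probe sets differed most from one another. Probe set 212867_at read 475 with miR-99a and 612 with si-GL2 (difference -0.36), the lowest of the 13. Probe set 205732_s_at read 82.7 with miR-99a and 79.4 with si-GL2 (difference 0.05). Probe set 215605_at read 66.5 with miR-99a and 65.3 with si-GL2 (difference 0.02). The bright probe set was thus lower after miR-99a while the 2 dim but expressed ones were alike on both arrays. The remaining one, 205731_s_at, was just below the limit and read 54.2 with miR-99a and 39.05 with si-GL2 (difference 0.35), the highest of the 13. The lowest and highest differences among the cofactor probe sets therefore belong to 1 gene, and the mean over its 4 probe sets was 0.02 with an SD of 0.29. The direction given for NCOA2 depends on the choice of probe set: -0.36 by the brightest, 0.02 as a mean over all, and -0.10 as a mean over the 3 expressed ones. The range of the 3 was 0.41, beside a median of 0.25 and a 75th percentile of 0.40 over 1547 genes with 3 expressed probe sets. Which transcript forms the 4 probe sets read was not analysed here.

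**Figure D2:**
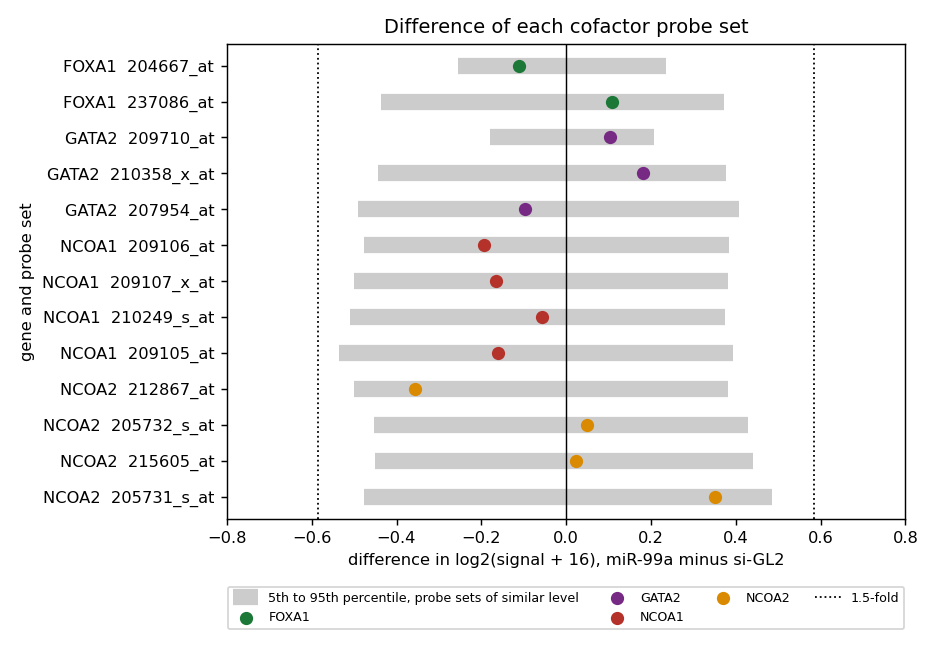
Difference of each cofactor probe set in log2(signal + 16), miR-99a minus si-GL2 (horizontal axis), coloured by gene; grey bars span the 5th to 95th percentile of all probe sets of similar level and dotted lines mark 1.5-fold. All 13 points lie inside their grey bars; the 4 of NCOA1 are all left of 0, and NCOA2 holds both the lowest point, -0.36, and the highest, 0.35.

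The comparison of probe sets within a gene placed the other 2 genes in the middle. The range was 0.22 in FOXA1, beside a median of 0.16 over 3231 genes with 2 expressed probe sets, and 0.28 in GATA2, beside the median of 0.25 for genes with 3. Expressed probe sets of both signs, as in FOXA1, GATA2 and NCOA2, were found in 43.8% of 5842 genes with at least 2 of them.

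**Figure D3:**
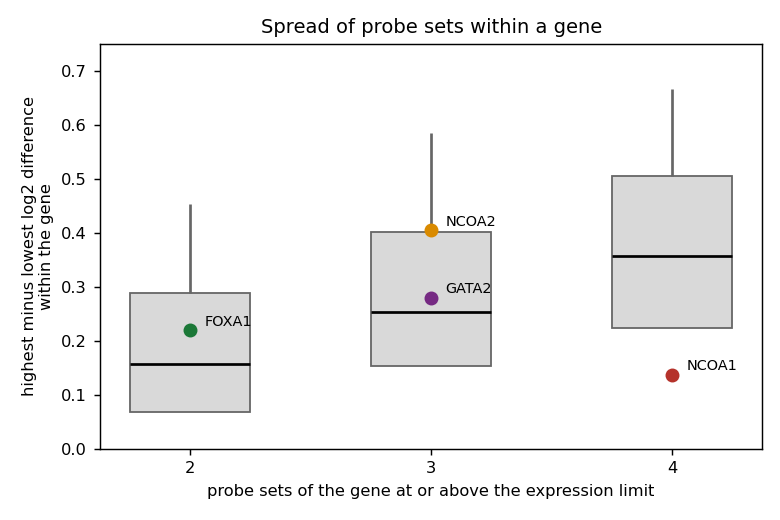
Highest minus lowest log2 difference among a gene's expressed probe sets (vertical axis), by their number (horizontal axis); boxes span the quartiles over all such genes with the median as a line, whiskers reach the 90th percentile, and points are the cofactor genes. NCOA1, at 0.14, lies below the box for genes with 4 probe sets, and NCOA2, at 0.41, at the top of the box for genes with 3.

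The promoter sequences of FOXA1, GATA2 and NCOA1 show which of the motifs that these factors read stand next to their own starts. NCOA2 was left out of this description. RefSeq windows of 250 bases before to 50 after a start (GRCh38.p14) were searched on both strands for the forkhead core TGTTTNC, the GATA word GATAA, the androgen half-site AGAACA and the full androgen site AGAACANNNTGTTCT, which itself contains the half-site. Of 35116 windows in the table, 18.0% held the forkhead core, 22.7% the GATA word, 14.8% the half-site and 0.0028% the full site. Printed are the windows of FOXA1 and NCOA1 that hold a match, with the matched letters in capitals. That of FOXA1 is chr14:37595200-37595499 on the minus strand, and those of NCOA1 are chr2:24491004-24491303 and chr2:24584227-24584526 on the plus strand.
FOXA1 promoter: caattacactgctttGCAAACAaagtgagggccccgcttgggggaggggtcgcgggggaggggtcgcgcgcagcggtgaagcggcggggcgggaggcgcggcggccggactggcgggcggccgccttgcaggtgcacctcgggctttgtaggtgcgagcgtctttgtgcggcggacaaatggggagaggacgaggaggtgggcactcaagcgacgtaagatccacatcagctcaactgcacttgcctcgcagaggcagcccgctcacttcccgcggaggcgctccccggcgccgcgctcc
NCOA1 upstream promoter: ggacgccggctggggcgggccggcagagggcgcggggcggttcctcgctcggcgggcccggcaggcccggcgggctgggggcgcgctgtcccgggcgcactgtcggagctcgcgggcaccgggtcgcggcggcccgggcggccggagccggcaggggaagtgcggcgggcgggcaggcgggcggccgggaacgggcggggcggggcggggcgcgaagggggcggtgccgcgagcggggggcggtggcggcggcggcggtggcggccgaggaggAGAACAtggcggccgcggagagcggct
NCOA1 downstream promoter: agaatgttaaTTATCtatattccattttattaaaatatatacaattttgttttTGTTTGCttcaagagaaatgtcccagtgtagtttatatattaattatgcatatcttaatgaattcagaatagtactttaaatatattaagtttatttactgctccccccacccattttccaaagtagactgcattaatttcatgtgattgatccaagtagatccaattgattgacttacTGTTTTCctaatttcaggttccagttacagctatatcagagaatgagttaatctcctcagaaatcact
The FOXA1 window holds 1 forkhead core, on the strand opposite to the gene, and its GC content is 69.3%. The upstream NCOA1 window, 85.7% GC, holds 1 androgen half-site that lies downstream of the start, and the downstream window, 28.7% GC, holds 2 forkhead cores and 1 GATAA word. The 2 windows of GATA2 and the other one of NCOA1 hold 0 of these letter strings. A match is a run of letters and not a bound site, and no binding was measured.

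Genes that act with the cofactors were described from 4 lists, by each gene's brightest probe set. At 1.5-fold, 4.11% of 12218 expressed genes differed, 2.90% lower and 1.21% higher. The median of all 12218 was -0.03, and 56.3% of them were below 0. Of 84 expressed genes on the 4 lists together, 1 was 1.5-fold lower, 2 were higher, and the median was 0.04. By their brightest probe sets the 4 cofactor genes themselves lay between -0.36 and 0.10, with 0 past 1.5-fold.

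The 32 expressed coactivators of 36 analysed had a median of -0.0026 (0.04 after quantile normalization), with 16 below 0 and 16 above. DDC, aromatic L-amino acid decarboxylase, which also binds the receptor as a coactivator, read 396 with miR-99a and 1389 with si-GL2 (difference -1.77); a second, dim probe set read 26.4 with miR-99a and 17.2 with si-GL2, below the limit, with a difference of 0.36. NCOA7, which encodes a coactivator outside the p160 family, read 288 after miR-99a and 182 after si-GL2 (0.62), while its 2 dimmer expressed probe sets were at 0.18 and -0.06. TRIM68, a ubiquitin ligase, was next lowest at -0.57, and the arginine methyltransferase PRMT1 next highest at 0.47, with signals of 3243 with miR-99a and 2342 with si-GL2; its other probe set was below the limit, at -0.54.

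EP300, CREBBP and CARM1, named above as brought in by p160 proteins, were close to 0 or slightly higher after miR-99a. EP300 read 283 after miR-99a and 233 after si-GL2 (0.26), with its second probe set at 0.15. CREBBP was at -0.03, with its second expressed probe set at -0.02, and CARM1 at -0.05. Other acetyltransferases on the list, looked at after their values were seen, went both ways: KAT2A was at 0.15, KAT5 at -0.01 and KAT2B at -0.44. MED1, the Mediator subunit that contacts nuclear receptors, was at 0.06, with 4 probe sets between -0.09 and 0.13. Another Mediator subunit, MED23, singled out after its values were seen, read 739 after miR-99a and 555 after si-GL2 (0.40). Its 5 probe sets all lay above 0, between 0.18 and 0.55. The share of such genes among those with 5 expressed probe sets was not counted. Among the 642 genes with 4 it was 19.8%.

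The 25 expressed corepressors of 27 analysed had a median of 0.15, with 15 above 0 and 10 below, the median of the 4 lists that lay farthest from that of all expressed genes. By brightest probe sets only TLE1, a Groucho-type corepressor, passed 1.5-fold among the 25, at 376 with miR-99a and 226 with si-GL2 (0.70); a second probe set gave 1.46 and the third, also expressed, -0.14. Its relative TLE3 was at 0.46, with 4 probe sets between -0.11 and 0.46, and TLE5 at -0.32. PIAS4, a SUMO ligase, was lowest at -0.49, with its second probe set at -0.18. In the deacetylase complex that NCOR1 belongs to, HDAC3 read 875 after miR-99a and 693 after si-GL2 on its 1 probe set (0.33). By their brightest probe sets the other subunits analysed were close to 0, TBL1XR1 at 0.08, TBL1X at -0.03 and GPS2 at -0.02. For TBL1X this depends on the probe set chosen. Its dimmer expressed probe sets all lay above 0, at 0.32, 0.04, 0.37 and 0.49. The 5 expressed TBL1XR1 probe sets lay between -0.23 and 0.17.

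Partner transcription factors and chaperones held 0 genes past 1.5-fold. The 13 expressed partner factors of 18 analysed had a median of -0.01, or 0.03 after quantile normalization, and lay between GATA4 at -0.40 and NFIB, a nuclear factor I gene, at 0.20. HOXB13, the homeobox factor of the prostate, read 2411 after miR-99a and 2341 after si-GL2 (0.04), and its second probe set 1729 after miR-99a and 1510 after si-GL2 (0.19). The 14 chaperones and cochaperones analysed, which hold the unliganded receptor, had a median of 0.05 and an SD of 0.10, beside an SD of 0.26 over all expressed genes. That background is not matched for level. The brightest probe sets of the chaperones read from 299 for SGTA to 9016 for HSPB1 with miR-99a. Around the brightest GATA2 probe set, at 4424 with miR-99a, the SD of all probe sets was 0.12. The chaperones lay between FKBP5, an immunophilin that is itself induced by androgen, at -0.17 and HSP90AB1 at 0.19, with BAG1 (-0.11) and HSPB1 (0.17) next to them. The 3 probe sets of FKBP5 were all below 0, between -0.30 and -0.11, and the 3 of HSP90AB1 all above 0, between 0.19 and 0.28. Such one-sided genes are common here: of 1547 genes with 3 expressed probe sets, 29.0% had all 3 below 0 and 22.3% all 3 above.

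**Figure D4:**
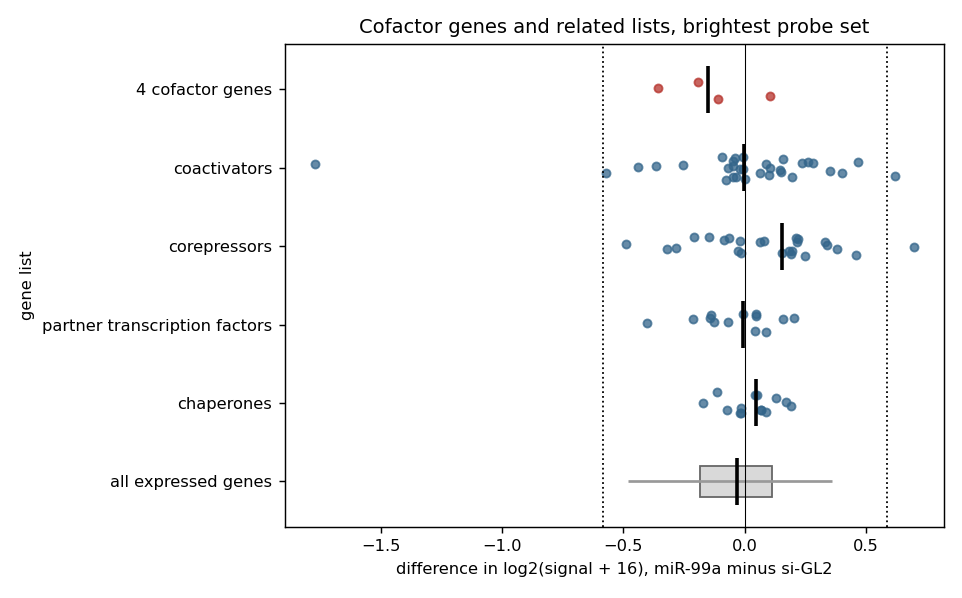
Difference in log2(signal + 16), miR-99a minus si-GL2 (horizontal axis), of the 4 cofactor genes and the expressed genes of each list by their brightest probe set; points are genes, thick lines medians, and dotted lines 1.5-fold. The box and line at the bottom show the quartiles and the 5th to 95th percentile of all 12218 expressed genes; corepressors have a median of 0.15, and DDC, at -1.77, stands apart among the coactivators.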

How the data were processed

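Per the labels' protocols, Trizol-extracted RNA was labelled with biotin and hybridised as Affymetrix prescribes. The values the authors deposited are linear signal intensities, 1 for each probe set on each array; how probes were summarised and arrays scaled is not given in the sources used here. The number of arrays, 1 per group, limits the precision.

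From these values log2(signal + 16) and its difference, miR-99a minus si-GL2, were computed without further scaling, since the array medians differed by 0.01. Gene names came from the platform annotation, in which 41097 probe sets had 1 gene, 1801 several and 11777 none. Symbols were looked up by Entrez identifier in a GRCh38.p14 gene table, where 41043 were found and 0 had changed. A gene was represented by its brightest probe set. Expressed means a mean level at or above the median of all probe sets. The 1.5-fold limit is a rule of size, not a test. No gene was named for likeness of pattern, since 2 arrays give no measure of it.

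The cofactor genes and lists were chosen with earlier results of these data known. Named from each of the 4 lists are the 2 highest, the 2 lowest and those past 1.5-fold, 14 genes set in the list rule whatever their values, and genes said to be chosen after their values were seen. A planned search for seed matches was not run. Alternatives were centring, quantile normalization, pseudocounts of 1 and 64, other expression limits, other size rules, leaving out _x_ and _s_ probe sets, and averaging probe sets. Python 3.11.15, numpy 2.4.6, pandas 2.3.3 and matplotlib 3.10.9 were used.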

Additional observations from a re-analysis of the deposited data

How the results depend on the processing

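No paired analysis was possible because each group holds 1 array. No cofactor probe set passed the size rule under 9 alternatives, and 1, of NCOA2, passed a 1.2-fold rule added after the values were seen. Several of the 9 could not raise a count of 0, by construction. These are the 2-fold rule, the 75th percentile limit, the pseudocount of 64, and leaving out _x_ and _s_ or NCOA2 probe sets. The median of the cofactor probe sets lay between -0.11 and -0.04 over 8 alternatives, one of which, leaving out NCOA2 (-0.10), was added. Each of the 13 differences kept its sign under both scalings and both pseudocounts, although that of NCOA1 210249_s_at came to -0.01 under quantile normalization. NCOA2 came to 0.02 when its probe sets were averaged.

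The background moved more. Expressed probe sets past 1.5-fold, 700 lower and 404 higher, became 329 and 164 with a pseudocount of 64, 2011 and 1881 with no expression limit, and 330 and 157 above the 75th percentile. They became 85 and 38 at 2-fold and 4390 and 3123 at 1.2-fold, and the higher ones 610 with a pseudocount of 1 and 235 without _x_ and _s_ probe sets. Expressed genes, 354 lower and 148 higher, became 176 and 73, 729 and 573, and 203 and 73 under the first 3 of these, 41 and 17 at 2-fold, 2042 and 1161 at 1.2-fold, and 211 and 97 as means over probe sets. A lower fold or a wider set calls more by construction.

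Among coactivators, 2 were lower with a pseudocount of 1, and 0 were higher with a pseudocount of 64, at 2-fold or as means. Among corepressors 0 were higher at 2-fold or as means. At 1.2-fold, 4 of 32 coactivators were lower and 5 higher, 3 of 25 corepressors lower and 5 higher, and 1 of 13 partner factors lower. In either direction this makes 9 of the 32 coactivators, 8 of the 25 corepressors, 1 of the 13 partner factors and 0 of the 14 chaperones. The share over all 12218 expressed genes was 26.2%. The coactivator and corepressor counts do not set those lists apart. The counts of partner factors and chaperones lay below that share, in short lists and beside a background not matched for level. The corepressor median stayed between 0.08 and 0.19, while those of coactivators (-0.05 to 0.04), partner factors (-0.08 to 0.04) and chaperones (-0.06 to 0.05) took both signs. With 1 array per group, no alternative measures the variation between cultures.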
